A study of Mus musculus with 6 samples.

Results

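The genes described here are 10 regulators of transcription in meiotic and haploid male germ cells: Crem, Fhl5, Tbpl1, Taf7l, Brdt, Rfx2, Sox30, Spz1, Tcfl5 and Ovol1. They were taken by symbol from the 24411 genes in the files, and all 10 were found and passed the filter on low counts. RNA came from whole testes of C57BL/6 mice, 3 with the genotype MRP5-/- and MRP9-/- (double knockout, DKO) and 3 Wildtype (WT), matched for age. The age itself and the way the alleles were made are not given in the sources used here. MRP5 and MRP9 are membrane transporters of the ABCC family, encoded by Abcc5 and Abcc12. The question put to these genes was whether the transcription program of haploid germ cells differed between the genotypes.

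After meiosis, round spermatids switch on a large set of genes for the sperm head, the acrosome and the tail, shortly before the histones are replaced and transcription stops. CREM, a factor that binds cAMP response elements, is central to this switch, and in spermatids it is activated by the LIM-domain protein FHL5 (also called ACT) without the phosphorylation that CREB needs in somatic cells. The same cells use testis forms of the general machinery (TBPL1 and TAF7L), a testis bromodomain protein (BRDT) that reads acetylated histones, and sequence-specific factors (RFX2, SOX30, TCFL5, SPZ1 and OVOL1), several of which begin to be made in pachytene spermatocytes.

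None of the 10 regulators passed the test between genotypes (0 of 10, edgeR quasi-likelihood test, adjusted p under 0.05), where 10.8% of all 17110 tested genes did (5.75% higher and 5.1% lower in libraries labelled DKO). At an unadjusted p under 0.05 there were 6 of 10, against 31.7% of all tested genes. DESeq2 called 5 of 10 (Fhl5, Rfx2, Spz1, Brdt and Tbpl1), against 20.8% of the genes for which it gave an adjusted p. The estimates were small and mostly on one side. The level was higher in libraries labelled DKO for 9 of the 10, against 49.3% of all tested genes, and lower for Rfx2 (on the TPM scales Ovol1 was below 0 too). The median log2 fold change (labelled DKO over labelled WT throughout) was 0.21 for the 10, and -0.0042 over all tested genes. The CPM values (counts scaled to library size by edgeR's TMM method) of the groups did not overlap for 5 of the 10 (Crem, Tbpl1, Brdt and Spz1 on the higher side, Rfx2 on the lower), against 35.9% of all tested genes. This depended on the scale: in TPM the groups of Crem and Tbpl1 overlapped, and those of Fhl5 did not. The plot of CPM by library shows the 6 values of each gene.

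**Figure D1:**
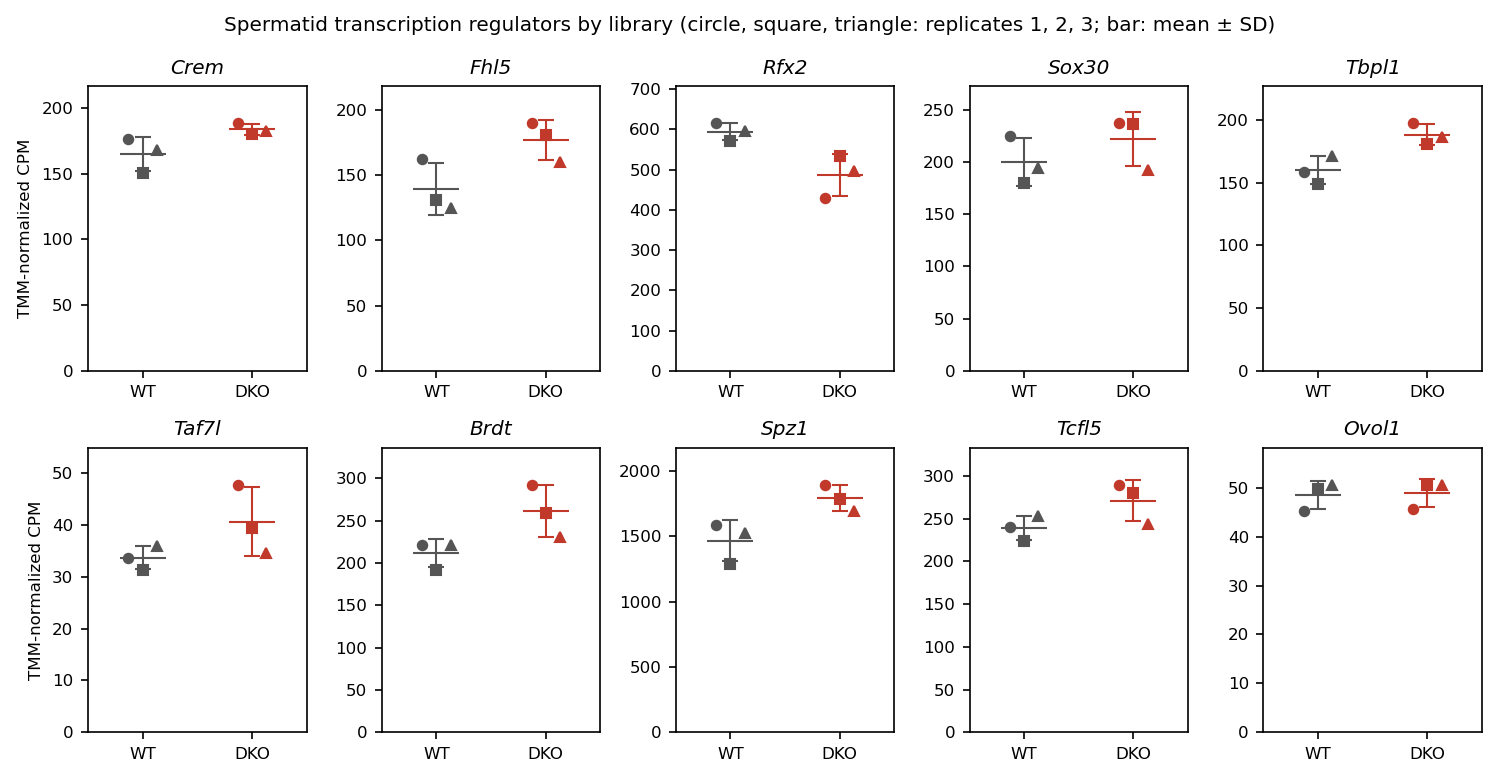
TMM-normalized CPM (counts scaled to a common library size, y axis from 0) of each regulator in the 3 WT and 3 DKO libraries; symbols are replicates and bars the mean ± SD. Rfx2 is lower in all 3 libraries labelled DKO, the groups of Ovol1 lie on top of each other, and Crem, Tbpl1, Brdt and Spz1 are higher in all 3 labelled DKO without passing the test.

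The libraries held between 26753721 and 67131103 expected counts, with all 3 labelled DKO deeper than all 3 labelled WT, and the smallest count of any of the 10 genes in any library was 887. The mean fragment length also did not overlap between the groups, at 317, 289 and 275 bases in DKO replicates 1 to 3 and 258, 230 and 246 bases in WT replicates 1 to 3, and it cannot be told apart from genotype. With fragment length as a covariate edgeR called 1 of all tested genes and none of the 10 regulators (0 of 10 at an unadjusted p under 0.05; adjusted p from 0.999). The estimates of Crem, Sox30, Taf7l, Brdt and Tcfl5 then lay below 0, that of Rfx2 was -0.14, and those of Tbpl1 (0.10), Fhl5 (0.0019), Spz1 (0.0072) and Ovol1 (0.21) stayed above 0. Calls also turned on single libraries: without DKO replicate 1, WT replicate 2 or WT replicate 3, edgeR called 11, 13 or 7 of all tested genes in place of 1856, and none of the 10. Without DKO replicate 3 it called 3029, with Brdt, Fhl5, Spz1 and Taf7l among them, without WT replicate 1 it called 2037, with Fhl5 and Spz1, and without DKO replicate 2 it called 655, with Rfx2. All called genes of the 5 pathway lists below lost their calls with fragment length as a covariate, and likewise without DKO replicate 1, WT replicate 2 or WT replicate 3. Abcc12 had 79.0 ± 5.56 CPM in libraries labelled DKO and 160 ± 3.93 in those labelled WT, whereas Abcc5 had 16.8 ± 0.190 and 11.4 ± 0.898 (SD, n = 3 each). The amount of Abcc5 transcript thus goes against its label, and groups are named by their labels; which exons the alleles lack is not given in the sources used here. The summed CPM of 10 spermatocyte markers was 1516 to 1872 in libraries labelled DKO and 1385 to 1513 in those labelled WT, with 2 of 10 called, both higher (Sycp3, and Hormad1, whose groups overlapped). At an unadjusted p under 0.05 there were 6 of the 10. Their median log2 fold change was 0.32, against -0.0042 over all tested genes. Of 10 round spermatid markers 0 were called by edgeR (3 had an unadjusted p under 0.05), and their sums overlapped (2290 to 2443 against 2084 to 2481 CPM). Of 10 elongating spermatid markers 2 were called, 1 higher (Akap4) and 1 lower (Gapdhs), with overlapping sums (23152 to 27479 against 24282 to 27639). Sertoli and Leydig markers had 3 of 10 called each, all lower, and overlapping sums (1060 to 1277 against 1244 to 1536 CPM, and 479 to 697 against 673 to 1244). Their median log2 fold changes were -0.25 and -0.48. An unadjusted p under 0.05 was found for 5 Sertoli, 6 Leydig and 2 elongating spermatid markers. Of 10 spermatogonial markers 9 were tested and 0 called (0 at an unadjusted p under 0.05), and of 10 macrophage markers 0 were called (4 at an unadjusted p under 0.05); the sums overlapped for both (101 to 108 against 99.6 to 113 CPM, and 79.9 to 91.7 against 73.5 to 115 CPM). Of 10 myoid and endothelial markers 1 was called, Tagln, lower (4 had an unadjusted p under 0.05), and their sums did not overlap (152 to 170 against 174 to 218 CPM). Over all tested genes 10.8% were called (5.75% higher and 5.1% lower), and 31.7% had an unadjusted p under 0.05. No listed marker was at 0 in all libraries. In whole tissue, fewer cells of a type and less RNA per cell cannot be told apart, and the part of these differences in the values below was not tested.

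Levels per length were compared in TPM (a share of all transcripts, in which counts are divided by transcript length). Spz1, a basic helix-loop-helix leucine zipper protein of the testis, was by far the most abundant of the 10, with a mean of 1786 TPM over the 6 libraries and a level above 99.8% of tested genes. Fhl5 followed with 276 TPM, Rfx2 with 259, Tcfl5 with 192, Brdt with 150, Crem with 129, Sox30 with 113 and Tbpl1 with 97.6. Taf7l (32.5 TPM) and Ovol1 (27.1 TPM) were lowest, yet still above 74.9% and 72.0% of tested genes. Spz1 stood apart from Fhl5 in every library, and Tbpl1 from Taf7l. Each of the other neighbours in this order had overlapping values across the 6 libraries.

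Crem encodes both activators and repressors of the cAMP response through many transcripts, 16 of which are listed for it in the files. It lies on chromosome 18, from 3266048 to 3337748 on the minus strand of GRCm38. Its CPM was 188, 180 and 183 in DKO replicates 1 to 3 and 176, 151 and 168 in WT replicates 1 to 3. All 3 libraries labelled DKO were above all 3 labelled WT, by a margin of a few CPM between DKO replicate 2 and WT replicate 1. In TPM the order of this pair was reversed (127.06 and 127.95), so the groups overlapped on that scale. The means were 184 ± 4.18 and 165 ± 13.0 CPM (mean and SD over 3 libraries), which gave a log2 fold change of 0.16 (SE 0.0753; 95% confidence interval -0.0088 to 0.32; edgeR adjusted p = 0.179). The abundance-weighted length of its transcripts, which moves only when the estimated mix of transcripts moves, was 2253, 2241 and 2253 bases in libraries labelled DKO and 2239, 2236 and 2237 in those labelled WT. These lengths did not overlap, which was so for 16.8% of the 4459 tested genes with several transcripts. The difference was 0.528% of the length, a size that exceeded the change of 72.1% of those genes. This percent depends on how far apart a gene's transcript lengths lie, and does not measure how far the mix moved.

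Fhl5 encodes the coactivator that binds CREM in spermatids. It lies on chromosome 4, from 25199908 to 25242876 on the minus strand, inside a longer noncoding gene of the opposite strand (Gm11906) in the GENCODE annotation. Its CPM was 190, 181 and 160 in DKO replicates 1 to 3 and 162, 131 and 125 in WT replicates 1 to 3. The groups touched: DKO replicate 3 was below WT replicate 1. In TPM they did not overlap, with DKO replicate 3 at 286 and WT replicate 1 at 275. Fhl5 had the largest estimate of the 10, a log2 fold change of 0.34 (SE 0.103; 95% confidence interval 0.12 to 0.57), and missed the threshold narrowly (edgeR adjusted p = 0.0528). It passed in 6 of 17 alternative fits, among them those without DKO replicate 3 or without WT replicate 1.

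The list of CREB and FHL relatives and cofactors held 20 tested genes. Of these, 1 was called higher and 2 lower, against 5.75% and 5.1% of all tested genes. The median log2 fold change was 0.01, against -0.0042 over all tested genes. Crtc1 and Crtc3, coactivators that carry the cAMP signal to CREB in many tissues, were both lower. Crtc1 had 16.0 ± 2.03 CPM in libraries labelled DKO and 21.1 ± 0.276 in those labelled WT (SD, n = 3 each; log2 fold change -0.40; edgeR adjusted p = 0.0358). Crtc3 had 20.9 ± 1.34 against 26.1 ± 1.73 CPM (log2 fold change -0.32; adjusted p = 0.0401). Prkar2a, a regulatory subunit of protein kinase A, was higher at 286 ± 34.8 against 224 ± 16.5 CPM (log2 fold change 0.35; adjusted p = 0.0417). None of these 3 was called on either TPM scale. Creb1, the somatic relative of Crem, had a mean of 3.85 TPM over the 6 libraries against 129 TPM for Crem, and Crem was 33.7 times as abundant per length on the geometric mean.

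Tbpl1 encodes a relative of the TATA-binding protein that spermatids need, and Taf7l a testis counterpart of the TFIID subunit TAF7. Tbpl1 lies on chromosome 10, from 22703879 to 22731938 on the minus strand, and overlaps Slc2a12 on the opposite strand by 407 bases. Its CPM was 197, 181 and 187 in DKO replicates 1 to 3 and 159, 149 and 171 in WT replicates 1 to 3. Every library labelled DKO was above every library labelled WT, with a log2 fold change of 0.24 (SE 0.0754; 95% confidence interval 0.07 to 0.40; edgeR adjusted p = 0.0613). In TPM the groups of Tbpl1 overlapped, with DKO replicate 2 (96.2) below WT replicate 3 (97.8). Taf7l lies on the X chromosome, from 134460118 to 134476490 on the minus strand. Its CPM was 47.7, 39.3 and 34.6 in DKO replicates 1 to 3 and 33.7, 31.3 and 35.8 in WT replicates 1 to 3. The groups overlapped, and DKO replicate 1 was the highest of the 6: the log2 fold change was 0.27 (SE 0.110; edgeR adjusted p = 0.120) with all libraries, 0.12 (adjusted p = 0.431) without DKO replicate 1 and 0.37 (adjusted p = 0.0245) without DKO replicate 3.

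Relative to their widely expressed paralogs, the differences of both genes lay within the spread between libraries. The log2 ratio of Tbpl1 to Tbp in TPM was 0.24 ± 0.0254 in libraries labelled DKO and 0.22 ± 0.0195 in those labelled WT (SD, n = 3 each), a difference of 0.02 (exact permutation test, two-sided, p = 0.3; adjusted over 6 pairs 0.45). That of Taf7l to Taf7 was 0.99 ± 0.0880 and 0.99 ± 0.0284, a difference of 0.0016 (exact permutation p = 1.0; adjusted 1.0). With 3 against 3 libraries no p below 0.1 is possible. The testis form was thus 1.17 times as abundant per length as Tbp and 1.98 times as abundant as Taf7 on the geometric mean over libraries. Of 22 listed genes of the general machinery (TBP relatives, TFIID subunits, TFIIA and TFIIB), 21 were tested. Of these, 0 were called by edgeR, against 10.8% of all tested genes. At an unadjusted p under 0.05 there were 11 of 21, against 31.7%. DESeq2 called 2, Gtf2a2 and Taf12, both higher, against 20.8% of the genes for which it gave an adjusted p. The median log2 fold change of the list was 0.13, against -0.0042 over all tested genes. It was above 0 for 15 of 21, against 49.3%.

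**Figure D2:**
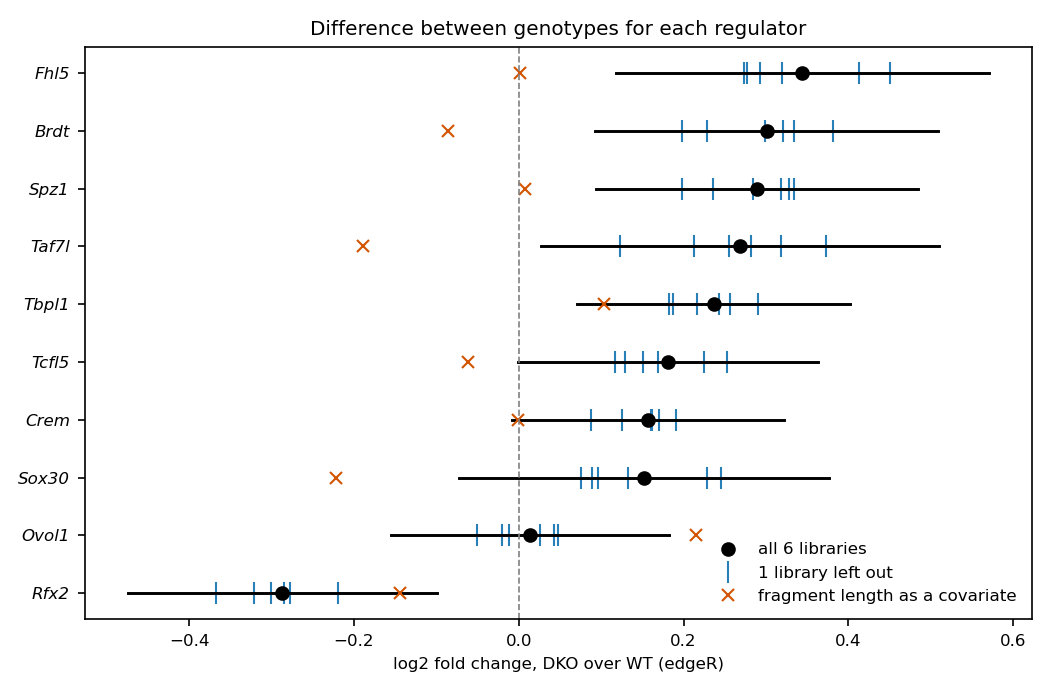
Log2 fold change (x axis, labelled DKO over labelled WT) of each regulator from the edgeR fit, with its 95% confidence interval (line), the estimates from fits that each leave out 1 library (ticks) and the estimate with mean fragment length as a covariate (crosses). Fhl5, Brdt, Spz1, Taf7l and Tbpl1 have intervals above 0 and Rfx2 an interval below 0, while with fragment length in the fit Brdt moves from 0.30 to -0.09.

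Brdt encodes the testis member of the BET family, proteins that bind acetylated histones through bromodomains, and in spermatocytes and spermatids it is needed both for gene activation and for compaction of acetylated chromatin. It lies on chromosome 5, from 107331159 to 107387058 on the plus strand. The files list 2 transcripts for it. The GENCODE models that carry the same accessions show that they share their first coding exons and part at position 107350426. The long one continues with the next exon, runs through 19 exons and encodes 956 codons, whereas the short one reads on into the intron, meets a stop codon at position 107350439 and ends after 7 exons with 326 codons. The 30 bases around this point are printed because the difference described next lies between these transcripts; the shared exon is in small letters, and the bases in capitals belong to each transcript alone, those of the short one ending in its stop codon (for the short transcript, chr5:107350412-107350441, GRCm38, plus strand).
Brdt long transcript: ctcggaacgatcaagGGGAAAATGGACAAT
Brdt short transcript: ctcggaacgatcaagGTAAATACTGCCTGA

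The CPM of Brdt was 292, 259 and 231 in DKO replicates 1 to 3 and 222, 192 and 221 in WT replicates 1 to 3. No library labelled DKO was as low as any labelled WT, and the log2 fold change was 0.30 (SE 0.0950; 95% confidence interval 0.09 to 0.51; edgeR adjusted p = 0.0600). The abundance-weighted transcript length was 2480, 2486 and 2523 bases in libraries labelled DKO and 2612, 2752 and 2632 bases in those labelled WT. The shorter mean in libraries labelled DKO (2497 bases with an SD of 23.2, against 2665 with an SD of 75.9; exact permutation p = 0.1, the lowest value that 3 against 3 allows) was a change of -6.33%. Among the 4459 tested genes with several transcripts whose length varied, 97.6% changed by less, and 16.8% had lengths that did not overlap between groups. The rank of Brdt also depends on how far apart its transcript lengths lie.

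From the lengths of the GENCODE models (4745 and 1607 bases), the weighted length of Brdt implies a share of 27.8, 28.0 and 29.2% for the long transcript in DKO replicates 1 to 3 and of 32.0, 36.5 and 32.7% in WT replicates 1 to 3. Divided in these proportions, the TPM of the long transcript was 52.7, 45.4 and 44.7 in libraries labelled DKO and 43.4, 44.1 and 45.4 in those labelled WT. The long transcript therefore overlapped between the groups (47.6 ± 4.41 against 44.3 ± 1.02 TPM, SD, n = 3 each; exact permutation p = 0.3). The short transcript had 137, 117 and 108 TPM in libraries labelled DKO and 92.2, 76.8 and 93.6 TPM in those labelled WT, without overlap (121 ± 14.5 against 87.5 ± 9.36 TPM; 1.38 times higher; exact permutation p = 0.1). These shares rest on the GENCODE lengths, which lay within 5% of the deposited length for 72.3% of 11901 genes with 1 transcript. They also rest on the authors' assignment of fragments to transcripts. The order of the 6 libraries by Brdt length was the exact reverse of their order by fragment length, which 0.516% of genes with several transcripts showed; the same order was shown by 0.538%. The plot of Brdt transcripts by library gives the divided values.

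**Figure D3:**
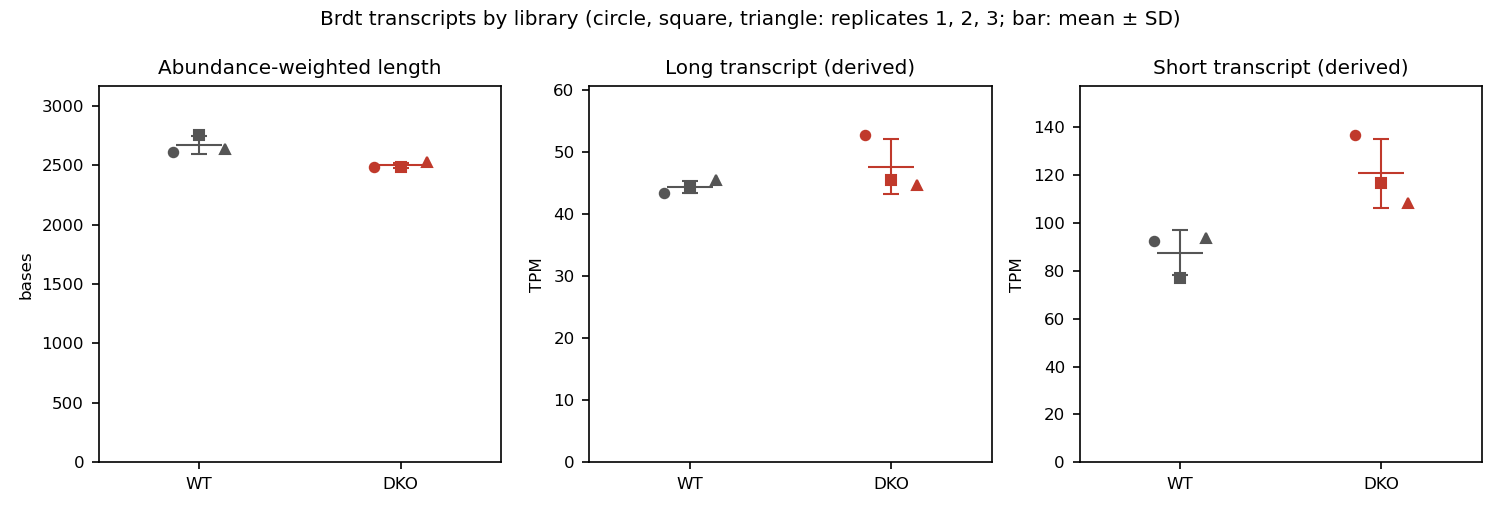
Abundance-weighted Brdt transcript length in bases and the derived TPM of its long and short transcripts (y axes from 0) in 3 WT and 3 DKO libraries; symbols are replicates and bars the mean ± SD. The length is shorter in all 3 libraries labelled DKO, the long transcript overlaps between the groups, with DKO replicate 1 highest at 52.7 TPM, and the short transcript is at least 108 TPM in libraries labelled DKO and at most 93.6 TPM in those labelled WT.

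Rfx2 encodes a winged-helix factor that binds X-box sequences and drives ciliary and flagellar genes in spermatocytes and spermatids. It was the only one of the 10 with a lower CPM in libraries labelled DKO; in TPM, Ovol1 was also lower on average (26.7 against 27.6), with overlapping groups. It lies on chromosome 17, from 56775897 to 56831013 on the minus strand. Its CPM was 431, 534 and 496 in DKO replicates 1 to 3 and 615, 572 and 596 in WT replicates 1 to 3. All 3 libraries labelled DKO were below all 3 labelled WT. The log2 fold change was -0.29 (SE 0.0857; 95% confidence interval -0.47 to -0.10), with the smallest p of the 10 genes and an adjusted p just over the threshold (edgeR adjusted p = 0.0523). Its estimate was below 0 in all 17 alternative fits, from -0.37 to -0.14, and passed the threshold in 8 of them, both TPM scales and DESeq2 included. Fhl5, Tbpl1 and Spz1 also kept their sign in all 17, on the higher side. In TPM it was 200, 242 and 242 in libraries labelled DKO and 288, 293 and 290 in those labelled WT. The log2 ratio of Rfx2 to Rfx3, a relative of ciliated tissues, was 4.92 ± 0.184 against 5.32 ± 0.0857 (SD, n = 3 each), without overlap (difference -0.39; exact permutation p = 0.1; adjusted 0.3). The abundance-weighted length of Rfx2 was 3329 bases on average in libraries labelled WT and 3334 in those labelled DKO. The difference of 4.58 bases was 0.138% of the length, and the groups did not overlap (exact permutation p = 0.1). Its 2 transcripts are close in length (3283 and 3350 bases in the GENCODE models). A small change in length can therefore go with a larger change in their mix, which was not derived.

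**Figure D4:**
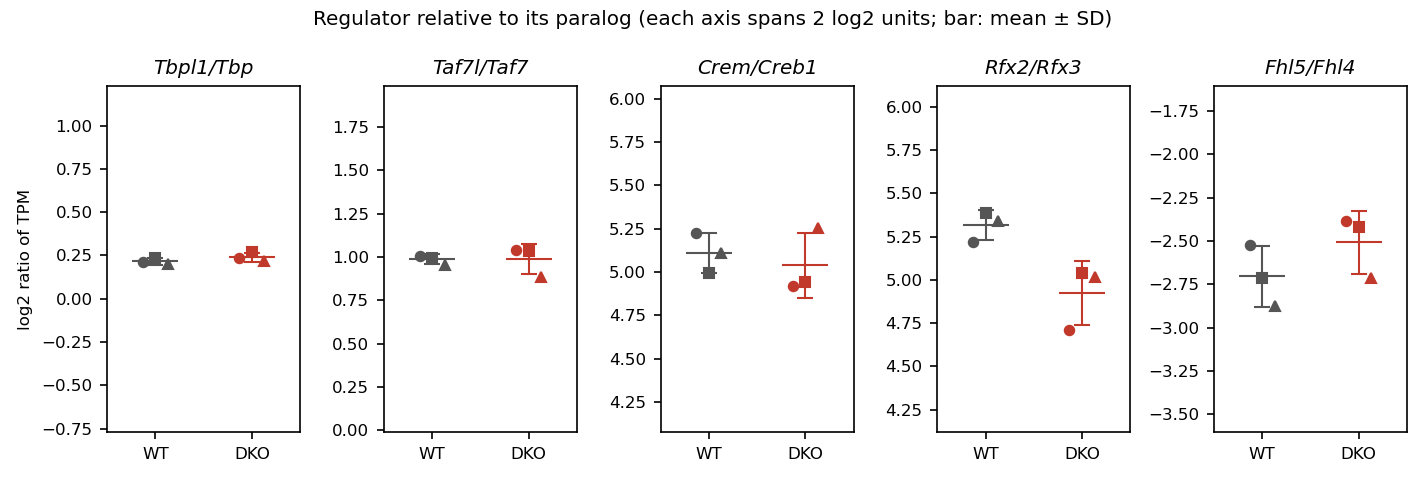
Log2 ratio of the TPM of each regulator to that of its paralog (y axis; every panel spans the same number of log2 units but starts at its own value) in 3 WT and 3 DKO libraries, with the mean ± SD. The ratio is lower for Rfx2/Rfx3 in all 3 libraries labelled DKO than in all 3 labelled WT, and overlaps between groups for the other 4 pairs shown.

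Promoter sequence was looked at for the 8 members with an entry in the RefSeq table (GRCm38.p6), in the 250 bases before the start, on both strands, for the cAMP response element TGACGTCA, its half-site TGACG, the E-box CACGTG of helix-loop-helix factors and the X-box half-sites GTTGCC and GTTACC. The full element contains the half-site. Over all 32851 windows these were found in 1.55%, 17.8%, 6.02%, 10.4% and 6.06%. The full element was in none of the 9 windows of the 8 genes (Fhl5 has 2 starts), and the half-site only in that of Rfx2, where it begins 224 bases before the start. The window of Rfx2 also held both X-box half-sites 1 base apart, GGTAAC (the reverse complement of GTTACC) 123 bases and GTTGCC 116 bases before the start. For the X-box only half-sites were searched, so whether their order and spacing make a full X-box was not examined. Spz1 also held GTTGCC, and Tcfl5 GTTACC. The E-box was in the windows of Brdt (78 bases before the start) and Taf7l (49 bases). The windows of Rfx2, Brdt and Taf7l, which held the cAMP half-site or the E-box, are printed, a choice made after the values were seen. Spz1 and Tcfl5, which share an X-box half-site with Rfx2, were on the higher side. A link between motif and direction was not tested. Capitals mark the motif letters (Rfx2, chr17:56831009-56831258, minus strand; Brdt, chr5:107330944-107331193, plus strand; Taf7l, chrX:134476491-134476740, minus strand), and a match is a description, not a bound site.
Rfx2 promoter: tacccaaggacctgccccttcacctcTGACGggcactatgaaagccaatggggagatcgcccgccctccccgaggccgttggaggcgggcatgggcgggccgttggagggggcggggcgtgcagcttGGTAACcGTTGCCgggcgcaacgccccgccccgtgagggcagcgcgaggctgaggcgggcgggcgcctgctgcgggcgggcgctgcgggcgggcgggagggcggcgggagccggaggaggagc
Brdt promoter: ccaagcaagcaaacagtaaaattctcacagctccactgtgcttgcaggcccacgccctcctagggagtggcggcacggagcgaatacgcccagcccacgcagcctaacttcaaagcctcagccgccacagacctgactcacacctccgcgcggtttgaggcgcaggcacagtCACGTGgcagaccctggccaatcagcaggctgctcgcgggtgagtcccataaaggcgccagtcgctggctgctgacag
Taf7l promoter: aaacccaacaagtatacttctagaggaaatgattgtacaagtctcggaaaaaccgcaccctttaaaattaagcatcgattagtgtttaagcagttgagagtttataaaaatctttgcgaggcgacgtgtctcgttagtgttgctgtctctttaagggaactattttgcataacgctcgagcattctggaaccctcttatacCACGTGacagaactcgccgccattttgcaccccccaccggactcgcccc

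Genes of cilium assembly, the process that RFX factors control, were read as a list of 30, all tested. Of these, 4 were called higher and 1 lower, against 5.75% and 5.1% of all tested genes. The median log2 fold change was 0.10, against -0.0042 over all tested genes. The intraflagellar transport genes Ift81 (154 ± 14.2 against 120 ± 8.35 CPM, mean and SD of 3 libraries labelled DKO and 3 labelled WT; log2 fold change 0.36; edgeR adjusted p = 0.0333) and Ift80 (135 ± 13.2 against 106 ± 6.50 CPM; 0.36; adjusted p = 0.0340) were higher. So were Bbs5, a subunit of the BBSome, which carries membrane proteins in cilia (log2 fold change 0.42), and Kifap3, a subunit of the kinesin motor of ciliary transport (0.33). Ift20 was lower, at 20.3 ± 1.24 against 26.0 ± 1.23 CPM (log2 fold change -0.36; edgeR adjusted p = 0.0317). Ift20 lost its call with an effective length offset and with the transcript length trend removed, and Kifap3 lost its call with that trend removed. On both TPM scales 0 of the 30 were called by limma (10 at an unadjusted p under 0.05). Rfx1, another widely expressed RFX factor, was the only gene called among 32 tested paralogs and other germ cell transcription factors. Of all tested genes 10.8% were called. Rfx1 was lower, at 162 ± 16.7 against 202 ± 18.2 CPM (log2 fold change -0.32; edgeR adjusted p = 0.0496), and its groups did not overlap. Its call was also lost after thinning, with limma-voom and without DKO replicate 2 or WT replicate 1. After thinning, 2 other genes of the list were called, both higher. The median of that list was 0.03, against -0.0042 over all tested genes.

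Sox30 encodes an HMG-box factor needed for genes of the round spermatid. It lies on chromosome 11, from 45980310 to 46017994 on the plus strand. Its CPM was 237, 237 and 193 in DKO replicates 1 to 3 and 225, 180 and 195 in WT replicates 1 to 3. DKO replicate 3 fell among the WT values, and the difference was within the spread (log2 fold change 0.15, SE 0.103; 95% confidence interval -0.07 to 0.38; edgeR adjusted p = 0.332).

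Spz1 lies on chromosome 13, from 92574636 to 92576172 on the minus strand. Its CPM was 1893, 1786 and 1696 in DKO replicates 1 to 3 and 1585, 1290 and 1522 in WT replicates 1 to 3, without overlap. The log2 fold change was 0.29 (SE 0.0892; 95% confidence interval 0.09 to 0.48; edgeR adjusted p = 0.0562). The 6 libraries had the same order by Spz1 as by fragment length, and the same held for Brdt, so 2 of the 10 genes did so against 5.07% of all tested genes, and none of the 10 had the reverse order, which 2.05% of genes had. With mean fragment length as a covariate, the log2 fold change of Spz1 was 0.0072.

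Tcfl5, which encodes a helix-loop-helix factor of pachytene spermatocytes and spermatids, lies on chromosome 2, from 180621956 to 180642708 on the minus strand. It overlaps Col9a3 on the opposite strand by 234 bases, and its counts carried fractions in all 6 libraries, so some fragments were shared with another gene and its values are uncertain to that extent. Its CPM was 290, 279 and 244 in DKO replicates 1 to 3 and 240, 224 and 253 in WT replicates 1 to 3. The groups overlapped through DKO replicate 3 and WT replicate 3 (log2 fold change 0.18, SE 0.0831; 95% confidence interval -0.00098 to 0.36; edgeR adjusted p = 0.160). Ovol1 encodes a zinc-finger repressor of pachytene cells and lies on chromosome 19, from 5549136 to 5560646 on the minus strand. Its CPM was 45.6, 50.6 and 50.6 in DKO replicates 1 to 3 and 45.2, 49.8 and 50.4 in WT replicates 1 to 3. The groups lay on top of each other, with a log2 fold change of 0.01 (SE 0.0768; 95% confidence interval -0.15 to 0.18; edgeR adjusted p = 0.923).

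Late spermatid genes, the class that the CREM program serves, were read as a list of 30, all tested. The list holds all 10 elongating spermatid markers above, Akap4 and Gapdhs among them, and several round spermatid markers. Its counts are therefore not separate from those of the markers. Of the 30, 2 were called higher and 1 lower, near the 5.75% and 5.1% of all tested genes. The median log2 fold change was 0.06, against -0.0042 over all tested genes. The balance turned on single libraries: without DKO replicate 2, 0 were called higher and 3 lower (Gapdhs, Prm1 and Tssk6), and without WT replicate 1, 4 were called higher (Akap3 and Akap4 among them) and 0 lower. Akap3 and Akap4, which anchor protein kinase A in the fibrous sheath of the tail, were higher. Akap3 had 1608 ± 210 CPM in libraries labelled DKO and 1123 ± 162 in those labelled WT (SD, n = 3 each; log2 fold change 0.52; edgeR adjusted p = 0.0299), and Akap4 had 2419 ± 113 against 1898 ± 172 (0.35; adjusted p = 0.0341). Gapdhs, the glycolytic enzyme of the sheath, was lower at 1333 ± 286 against 1795 ± 87.7 CPM (log2 fold change -0.43; adjusted p = 0.04997). Akap3 and Akap4 did not overlap between groups, nor did Gapdhs, which lost its call with an effective length offset, with the transcript length trend removed and on the log2(TPM + 1) scale.

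The genes whose log2 CPM followed Crem most closely over the 6 libraries, out of 10139 whose average log2 CPM was no less than 3, were Xpo4 (Pearson's r = 0.9996), Plekho2 (0.996), 4930451G09Rik (0.995) and Fbrs (0.993). None of these 4 was called, with log2 fold changes from 0.12 to 0.21. For Rfx2 they were Atp6v1f (0.996), Slc8a2 (0.996), Plbd2 (0.995), Thop1 (0.995) and 1700029F12Rik (0.995). Of these, Atp6v1f was called lower (log2 fold change -0.43; edgeR adjusted p = 0.0354), and the other 4 were not called. With 6 libraries in 2 groups, values this high are a description and are given without a p.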

How the data were processed

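RNA-seq of 6 whole testes was analysed, 3 labelled DKO and 3 labelled WT. All 6 descriptions carry the same run code and lane, extraction or library batches are not given in the sources used here, and p-values measure the spread between these samples only. Per the submitters' processing notes, the tools named are STAR 2.7.0f, RSEM 1.2.31 and DESeq2 1.12.3, with mm10 as the build. Strand handling and filters are not given in the sources used here. The authors deposited 1 table per sample with the expected count, the TPM, the FPKM (not used here) and the abundance-weighted and effective length of each gene. Expected counts were rounded and tested with edgeR 4.0.16 (filterByExpr, TMM scaling, quasi-likelihood test, Benjamini-Hochberg adjustment over 17110 genes, calls at adjusted p under 0.05; R 4.3.3). The scripts were tested on simulated data. DESeq2 1.42.0 and limma 3.58.1 (voom, and log2 of TPM plus 1 or 0.1) were alternatives, with other scalings, filters and each replicate left out. Ratios, lengths and derived Brdt transcripts were compared by exact permutation tests (SciPy 1.17.1). The 10 genes and all lists were chosen with earlier results of these data known. Named are the 10 genes, Abcc5 and Abcc12, the called genes of each list (at most 6, smallest p first), the paralogs, and the 5 genes nearest to Crem and to the regulator with the smallest p. The called cell markers, the general machinery genes that DESeq2 called and genes that overlap a regulator are named besides. Of these, 1 ratio pair (counted in the adjustment over 6 pairs) and 1 gene near Crem are not reported here.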

Additional observations from a re-analysis of the deposited data

How the results depend on the processing

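No paired analysis was possible because the replicate numbers used here are only names given in accession order, and the labels themselves hold no number that pairs a DKO with a WT sample. Over all tested genes, the 1856 calls became 1 with fragment length as a covariate, 2943 with DESeq2, 735 and 947 with limma on log2(TPM + 1) and log2(TPM + 0.1), 7 at adjusted p under 0.01, and 7 to 3029 with 1 replicate left out. The calls were 1891 with DESeq2 size factors, 2321 with no filter and 2042 with a mean count of at least 50. With an effective length offset they were 1661, with the length trend removed 1711, after thinning 1858 and with limma-voom 1685. Of the 10 regulators, 1 was called with DESeq2 size factors, 4 with no filter, 1 with a mean count of at least 50, 3 with an effective length offset, 2 with the length trend removed, 1 after thinning, 5 with DESeq2, 1 on either TPM scale, and 0 to 4 with 1 replicate left out. The general machinery had 2 calls with the effective length offset, the length trend removed or DESeq2, and 0 to 5 with 1 replicate left out, the 5 without DKO replicate 3. The CREB and FHL list had 0 with the covariate, on either TPM scale or at adjusted p under 0.01, 5 with DESeq2, and 0 to 4 with 1 replicate left out. Paralogs and other factors had 3 with no filter, 2 with a mean count of at least 50, the effective length offset, the length trend removed or thinning, 5 with DESeq2, 0 with the covariate, limma-voom or adjusted p under 0.01, and 0 to 5 with 1 replicate left out. Late spermatid genes had 0 with the covariate or at adjusted p under 0.01, and 0 to 4 with 1 replicate left out. Cilium genes had 3 with the length trend removed, 9 with DESeq2, 0 with the covariate, on either TPM scale or at adjusted p under 0.01, and 0 to 6 with 1 replicate left out. The cause of these shifts was not tested.

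With fragment length as a covariate the log2 fold change turned to -0.0013 for Crem, -0.22 for Sox30, -0.19 for Taf7l, -0.0863 for Brdt and -0.0617 for Tcfl5. That of Ovol1 was -0.0431 and -0.0445 on the TPM scales and -0.0508 to 0.0471 with 1 replicate left out. The Taf7l to Taf7 difference was -0.0177 in CPM per kilobase and -0.0246 to 0.0524 with 1 replicate left out. With 1 replicate left out the Brdt length difference stayed between -196 and -125 bases, and that of its short transcript between 25.0 and 39.1 TPM. A long transcript 5% longer or shorter, tried after seeing the data, gave 32.8 to 33.3 TPM. The length of the short transcript was not varied. Every regulator had at least 887 counts in each library. Thinning all libraries to the smallest total still brought 1 call, Brdt (edgeR adjusted p = 0.0469, against 0.0600 without thinning). The permutation tests were limited to p = 0.1 by 3 libraries a group.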

Other observations

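Fhl5 and Rfx2 were close in mean TPM but exchanged their order between the groups, a comparison chosen after their values were seen. The log2 ratio of Fhl5 to Rfx2 in TPM was 0.75, 0.33 and 0.24 in DKO replicates 1 to 3 and -0.07, -0.31 and -0.41 in WT replicates 1 to 3. Fhl5 was thus above Rfx2 in all 3 libraries labelled DKO and below it in all 3 labelled WT, by a mean difference of 0.71; as the pair was picked for its values, no test is given.

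In the promoters of late spermatid genes, the cAMP half-site TGACG was found in 11 of 37 windows and the full element in 0 of 37, where 17.8% and 1.55% of all 32851 windows held them. The E-box CACGTG was in 0 of 37, against 6.02% of all windows. These counts were not tested.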
